A study of Mus musculus with 54 samples.

Results

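The genes described here are Adgre5, which encodes the adhesion receptor CD97, its close relatives Adgre1 and Adgre4, and Cd55, which encodes a ligand of CD97. They are 4 of the 16632 genes listed in the count table, and all 4 were found by their symbols. Adgre5 was chosen by its level, which was much higher in microglia given alpha-synuclein (aSyn) than in untreated microglia in these same libraries. Its values in that comparison are therefore a description and carry no test. The relatives and Cd55 were added for contrast. Adgre5, Adgre1 and Adgre4 passed the filter on low counts, and Cd55 did not.

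All groups were primary microglia, the resident macrophages of the brain, from neonatal C57BL/6 mice. Cells of 2 brains were pooled per flask, grown with supernatant of L929 cells, which secrete the macrophage growth factor CSF1, and shaken off the astrocyte layer. Untreated cells (Untreated_Ctrl) and cells exposed to aSyn (aSyn_Donor) were not labelled with a co-culture time. Donors had received 1 µM aSyn carrying a green Atto-488 dye for 14 h, and acceptors had received only the violet dye CellTracer Violet. Both were mixed and then separated by flow cytometry at 0, 15, 30, 60, 150 or 300 min, so that a group is named by its role and time. Whether the untreated and aSyn-treated cells also went through the sorter, and what a 0 min co-culture involved, is not stated in the labels. The label gives no separate culture or animal for each library, so the p-values measure the spread between these samples, which share replicate numbers from 1 to 4. That number is called the experiment here. The labelled passage was 3, 1, 2 and 2 in experiments 1 to 4, so it differs between experiments and not between the groups of one.

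CD97 belongs to the adhesion G protein-coupled receptors, which have a long extracellular part joined to a 7-helix membrane domain and cut from it during maturation. Its outer end carries EGF-like repeats, which bind CD55, a membrane protein that protects cells from complement. Other stretches bind integrins and the surface protein Thy1. CD97 is found on many leukocytes and is known for its part in their adhesion and migration. Adgre1 encodes F4/80, the classical surface marker of mouse macrophages and microglia. Adgre4 encodes another EGF-repeat receptor of myeloid cells.

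Library totals ranged from 7807389 to 15537493 counts over 54 libraries. Untreated libraries with the same number were summed, which gave 52 samples and 3 or 4 per group. Levels are in CPM, a sample's counts of a gene as a share of its scaled library size, and 3 counts corresponded to 0.193 to 0.384 CPM of a library's total. All 9 microglial marker genes were detected in every class of sample, with a summed level of 1526 to 5082 CPM. Summed levels of the 8 astrocyte markers were 11.3 to 139 CPM in untreated cells, 11.2 to 29.3 in aSyn-treated cells, 8.79 to 35.3 in donors and 7.59 to 42.3 in acceptors. Those of the 4 oligodendrocyte markers were 96.5 to 446 CPM in untreated cells, 66.6 to 222.0 CPM in aSyn-treated cells, 58.0 to 128 CPM in donors and 54.3 to 163 CPM in acceptors, and those of the 4 neuronal markers did not exceed 4.97 CPM in any sample. Of the 3 monocyte markers 2 were analysed, with sums up to 6.36 CPM in donors and 4.83 in acceptors. One of the 3 neutrophil markers was analysed, with up to 8.46 CPM in donors and 1.18 in acceptors. Of the 4 T and B cell markers 1 was analysed, with at most 0.395 CPM, and the 3 fibroblast markers summed to at most 23.7 CPM, in acceptors. The ribosomal RNA precursor Rn45s took 13.4 to 22.3% of the counts in experiment 4 and 1.42 to 13.5% in experiments 1 to 3, ranges that meet at their ends.

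Adgre5 lies on chromosome 8 (chr8:83723251-83741326, minus strand, GRCm38). Adgre1 and Adgre4 lie on chromosome 17 (chr17:57358691-57483527 and chr17:55749984-55853662, both plus strand), and Cd55 on chromosome 1 (chr1:130439027-130462744, minus strand). The libraries read RNA near the 3′ end. There, the last exon of Adgre5 meets the end of Ddx39, an RNA helicase gene on the opposite strand: the 2 genes overlap by 3642 bp. In 2 of the 4 coding Adgre5 transcripts the last exon of 652 bp shares 98 bases with the last exon of 2 Ddx39 transcripts, and in the other 2 it shares 0. The use of strand in counting is not given in the sources used here, so values of Ddx39 are set beside those of Adgre5. Transcripts were also compared as 50-base stretches, each read in its own sense orientation. None of the stretches of Adgre5, Adgre1 or Adgre4 occurred in a transcript of another gene, whereas 384 of 4801 in Cd55 also occurred in its near copy Cd55b. Opposite strands were not compared, so the bases shared with Ddx39 are not counted here.

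Adgre5 was low in all cells that had not received aSyn and high in all that had. In untreated cells it was at 3.33, 2.66, 3.77 and 2.41 CPM in experiments 1 to 4, with a mean of 3.04 ± 0.621 (SD, n = 4). In aSyn-treated cells it was at 88.5, 84.5, 82.1 and 69.4 CPM, with a mean of 81.1 ± 8.25 (SD, n = 4). Each aSyn-treated sample was 21.8 to 31.8 times the untreated sample of its own experiment, and the fitted log2 fold change was 4.75 ± 0.29 (SE). This is the difference by which the gene was chosen, and 1.60% of the 13169 genes tested were called higher there. Ddx39 was at 65.0 ± 17.4 CPM after aSyn and 47.2 ± 6.79 CPM without it (SD, n = 4 each), which is 0.46 ± 0.24 (SE) higher on the log2 scale. The summed astrocyte markers had a median of 15.3 CPM in aSyn-treated and 48.2 CPM in untreated cells. The 2 dendritic cell markers analysed had medians of 6.45 and 1.38 CPM, and the 2 endothelial markers 2.32 and 0.579 CPM, of which 1 was called higher after aSyn by edgeR. In the same order, the neutrophil marker analysed had medians of 0.744 and 0.195 CPM, with up to 6.72 and 0.514 CPM. The 2 monocyte markers analysed had medians of 2.11 and 1.88 CPM, with up to 5.60 and 2.32 CPM. The part of these markers in the difference was not tested.

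**Figure D1:**
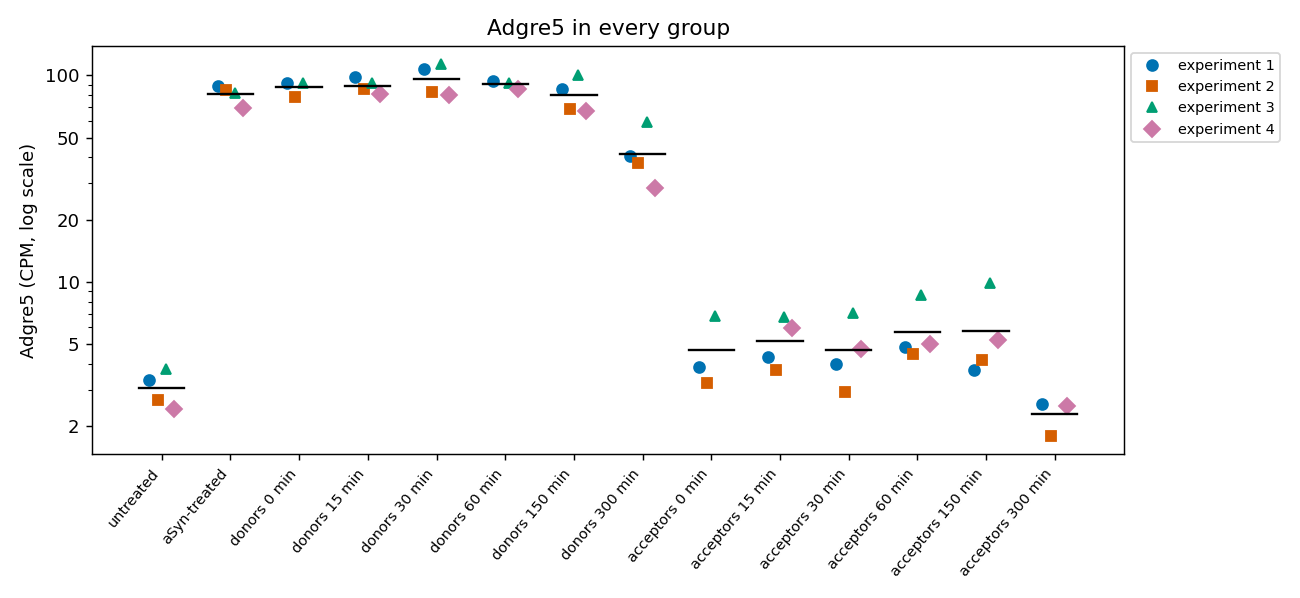
Level of Adgre5 (CPM, log axis) in each of the 14 groups, where a point is a sample, its shape and colour give the experiment, and bars are group means. Untreated cells and acceptors lie between 1.79 and 9.89 CPM, and aSyn-treated cells and donors between 28.6 and 113 CPM.

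The same gap was present between donors and acceptors after they had shared a dish. These libraries are not those of the contrast used to choose the gene, but donors had received aSyn as well, and earlier results of these data were known at the choice. At 0 min the donors had 92.2, 78.4 and 92.3 CPM in experiments 1 to 3 and the acceptors 3.88, 3.22 and 6.82 CPM. At 30 min the donors had 107, 83.5, 113 and 79.99 CPM in experiments 1 to 4 and the acceptors 3.98, 2.92, 7.08 and 4.70 CPM. At 300 min the donors had 40.5, 37.5, 59.3 and 28.6 CPM, and the acceptors 2.57, 1.79 and 2.50 CPM in experiments 1, 2 and 4. The lowest donor was thus far above the highest acceptor at each of these times, and the ranges did not overlap at any of the 6 times. From 0 to 300 min the ranges did not overlap for 16.8, 5.85, 5.83, 7.80, 4.62 and 6.03% of all genes.

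Adgre5 was called higher in donors than in acceptors at all 6 times with edgeR's quasi-likelihood test and Benjamini-Hochberg adjustment over 13169 genes. The log2 fold changes were 4.22 ± 0.33, 4.09 ± 0.28, 4.36 ± 0.29, 3.98 ± 0.29, 3.80 ± 0.28 and 4.18 ± 0.33 (SE) at 0, 15, 30, 60, 150 and 300 min. The edgeR adjusted p-values were 6.38e-12, 1.16e-13, 1.63e-14, 5.58e-13, 7.96e-13 and 1.17e-11 in the same order. Of all genes tested, 0.190, 0.683, 0.554, 0.334, 0.129 and 0.0304% were called higher in donors at these times, and Adgre5 had the smallest p of all genes at each of them. It was higher in donors in 21 of 21 same-numbered pairs, by 10.2 to 28.6 times. These pairs repeat the same 4 experiments over the 6 times, so they are not independent of each other. Every alternative processing kept the call at each time. The markers that moved with it were few: Pecam1, 1 of the 2 endothelial markers analysed and also known on leukocytes, was called higher in donors at 15 min (2.53 ± 0.471 against 0.337 ± 0.231 CPM, SD, n = 4 each) and at 30 min. Over all times the 2 endothelial markers summed to 0.608 to 3.45 CPM in donors and 0.0762 to 1.74 CPM in acceptors, and the 2 dendritic cell markers analysed, of 4, to 3.24 to 14.1 and 0.682 to 6.71 CPM. Their part in the Adgre5 difference was not tested.

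**Figure D2:**
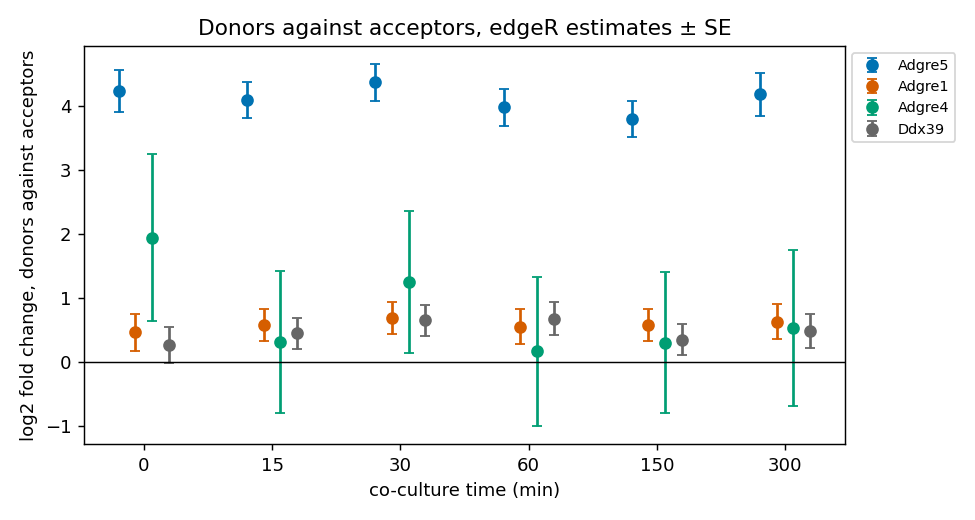
Log2 fold change of donors against acceptors (edgeR estimate, bars ± SE) at the 6 co-culture times for Adgre5, Adgre1, Adgre4 and Ddx39, the gene that overlaps Adgre5. Adgre5 lies between 3.80 and 4.36, and Adgre1 and Ddx39 between 0.27 and 0.68.

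The overlapping gene Ddx39 differed much less between donors and acceptors. Its level was 40.4 to 102 CPM in donors and 34.5 to 58.9 CPM in acceptors, and its log2 fold change of 0.27 to 0.67 did not pass the test at any time. With the replicate number as a block its call changed at 2 times, 30 min (0.62 ± 0.16, adjusted p = 0.0105) and 60 min (0.56 ± 0.18, adjusted p = 0.0435).

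Within donors, Adgre5 lay in 1 range of levels for the first 150 min and below that range at 300 min. Over the 18 donor samples from 0 to 150 min the level ran from 67.2 to 113 CPM, with a median of 88.8. The group means were 87.6 ± 8.02 at 0 min, 89.3 ± 7.51 at 15 min, 95.8 ± 16.5 at 30 min, 90.4 ± 4.40 at 60 min and 80.5 ± 15.9 at 150 min (SD, n = 3 or 4). At 300 min the mean was 41.5 ± 12.9 CPM (SD, n = 4), and the highest of its 4 samples, at 59.3 CPM, was below the lowest sample of the earlier times. In each of the 4 experiments the 300 min level was 0.425 to 0.589 times the 150 min level.

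The aSyn-treated cells are among the samples that chose the gene, so donors are set beside them as a description with no test. The log2 differences of donors from aSyn-treated cells were 0.11, 0.14, 0.24, 0.16 and -0.01 from 0 to 150 min. At 300 min the difference was -0.97 ± 0.25 (SE), and -1.02 ± 0.16 in the fit with the block. The 300 min donor was at 0.412 to 0.722 times the aSyn-treated sample of its experiment, and the ranges did not overlap, as for 1.78% of genes.

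A test of any change over the 6 times compared the donor groups alone. It drew its spread from the fit of all 14 groups, which holds the aSyn-treated and untreated libraries. Its F was 5.75 (unadjusted p = 4.00e-04, adjusted p = 0.329) without the block, where 0.0607% of genes passed, and 14.5 (adjusted p = 6.10e-05) with it, where 0.577% passed. With the block it passed in all 4 fits that left out 1 experiment, with adjusted p-values from 1.49e-04 to 0.0435. DESeq2 also called it (adjusted p = 0.00893). Without the block, it passed when experiment 3 was left out (adjusted p = 0.00515), but not in every fit that left out 1 experiment.

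**Figure D3:**
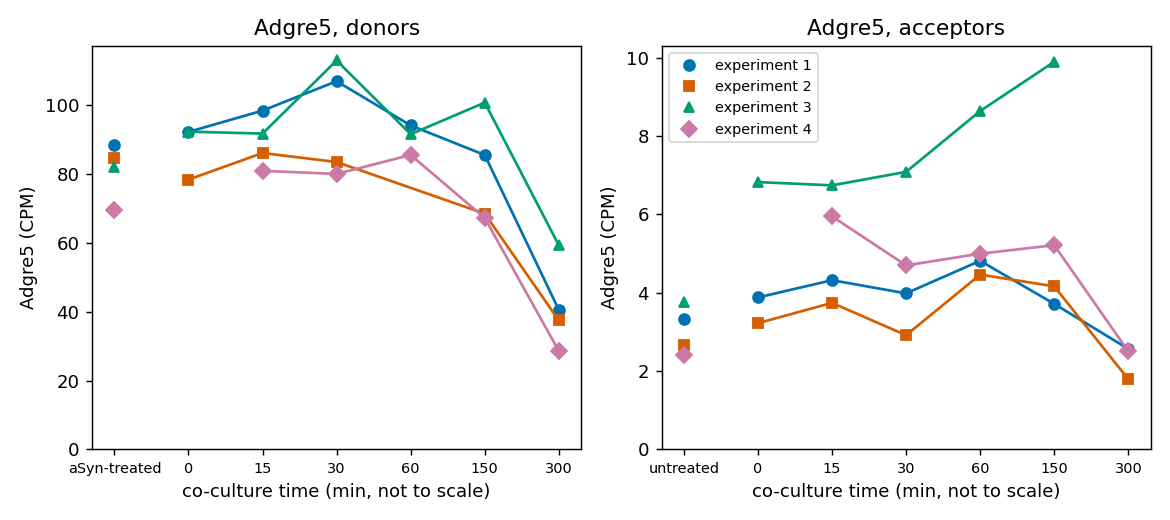
Level of Adgre5 (CPM) by co-culture time in donors (left) and acceptors (right), with 1 line per experiment and the aSyn-treated or untreated sample of that experiment at the left edge; the 2 vertical axes have different scales. All 4 donor lines end at 28.6 to 59.3 CPM at 300 min, and experiment 3 is the highest acceptor line at each time it has a sample.

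Acceptors, which had not been given aSyn themselves, had slightly more Adgre5 than untreated cells up to 150 min. At 60 min they had 4.81, 4.46, 8.64 and 4.996 CPM in experiments 1 to 4, and at 150 min 3.71, 4.16, 9.89 and 5.21 CPM. Experiment 3 was the highest in both, as it was in untreated cells. The group means from 0 to 150 min were 4.64 ± 1.92, 5.19 ± 1.39, 4.67 ± 1.77, 5.73 ± 1.95 and 5.75 ± 2.83 CPM (SD, n = 3 or 4), against 3.04 ± 0.621 in untreated cells. An acceptor sample at these times was at 1.10 to 2.62 times the untreated sample of its experiment. The comparisons at the 6 times share the same 4 untreated samples, so they do not repeat each other independently. At 60 min alone the ranges did not overlap, as for 4.15% of all genes. At 300 min the mean was 2.29 ± 0.429 CPM (SD, n = 3).

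The untreated libraries here are those against which the gene was chosen, so these values too are a description with no test. The log2 differences of acceptors from untreated cells were 0.64 ± 0.29, 0.80 ± 0.27, 0.63 ± 0.27, 0.93 ± 0.27, 0.95 ± 0.27 and -0.39 ± 0.31 (SE) from 0 to 300 min. Markers of other cell types also differed in level between these groups. The summed astrocyte markers had a median of 15.3 CPM in acceptors and 48.2 CPM in untreated cells, and the summed oligodendrocyte markers 93.7 and 148 CPM. The median log2 difference of the 4 oligodendrocyte markers was -3.49 to -1.95 over the 6 times, beside -0.04 to -0.02 for all genes. Their part in the Adgre5 values was not tested. At 300 min the level in acceptors was 0.431 to 0.691 times that at 150 min in the 3 experiments that had both. The test of change over time in acceptors compared the acceptor groups alone. Its fit held all 14 groups, so untreated libraries entered the estimate of spread. This test did not pass (adjusted p = 1.00 and 0.104 with the block). Neither did the test of whether the donor to acceptor difference changed over time (F = 0.583, adjusted p = 1.00).

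The acceptor level was a small part of the donor level beside it. Mean Adgre5 in acceptors was 5.30, 5.81, 4.87, 6.34, 7.14 and 5.52% of the donor mean at 0, 15, 30, 60, 150 and 300 min. Over all 14 groups, the 6 highest means were those of donors from 0 to 150 min and aSyn-treated cells, from 80.5 to 95.8 CPM, and each overlapped its neighbour in range. Donors at 300 min stood alone in the order, with no overlap above or below. The 6 acceptor groups and untreated cells came last, from 2.29 to 5.75 CPM, each again overlapping its neighbour. In bulk RNA, a few cells with much Adgre5 and many cells with a little cannot be told apart, and neither can donor RNA or donor cells within a sorted acceptor sample.

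Adgre1, which encodes F4/80, was abundant everywhere and modestly higher in cells with aSyn. In untreated cells it was at 535, 881, 775 and 811 CPM in experiments 1 to 4, and in aSyn-treated cells at 795, 973, 957 and 1499 CPM. The aSyn-treated sample was higher in 4 of 4 pairs, by 1.10 to 1.85 times, while the ranges overlapped. That is a log2 difference of 0.49 ± 0.25 (SE) in the contrast used to choose Adgre5, given with no test.

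Donors had more Adgre1 than acceptors in 21 of 21 same-numbered pairs, by 1.04 to 1.82 times. As for Adgre5, these pairs repeat the same 4 experiments and are not independent of each other. At 30 min the donors had 892, 815, 1117 and 1391 CPM in experiments 1 to 4 and the acceptors 491, 679, 691 and 765 CPM. The means were 1054 ± 258.8 and 656 ± 117 CPM (SD, n = 4 each). The ranges did not overlap at 30 min or at 150 min, as for 5.83 and 4.62% of genes, and overlapped at the other 4 times. Experiment 4 had the highest donors at every time but 0 min, where it had no sample, at 1391 to 1495 CPM. Experiment 1 had the lowest acceptors throughout, at 466 to 566 CPM.

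The log2 fold changes of Adgre1 were 0.46 ± 0.29, 0.58 ± 0.25, 0.68 ± 0.25, 0.55 ± 0.27, 0.57 ± 0.25 and 0.63 ± 0.27 (SE) from 0 to 300 min, none of them called in the edgeR fit (adjusted p = 0.227 and above). With the replicate number as a block, 5 of the 6 calls changed: it passed at 15 min (0.58, adjusted p = 0.00226), 30 min (0.68, adjusted p = 3.95e-04), 60 min (0.52, adjusted p = 0.0156), 150 min (0.58, adjusted p = 0.00380) and 300 min (0.61, adjusted p = 0.0127). At 0 min it did not (0.46, adjusted p = 0.0599). The block called 4.28, 9.57, 10.8, 6.70, 5.19 and 1.38% of genes in either direction at the 6 times. With 1 experiment left out of the fit with the block, Adgre1 was called in 4 of 4 fits at 15 and 30 min, in 3 at 150 min, in 2 at 60 min and in 1 at 300 min. At 0 min, where the fit with all experiments did not call it, it was called in 2 of 4 (adjusted p = 0.0170 without experiment 2 and 0.0323 without experiment 4). By group means, Adgre1 in acceptors was 0.84 to 1.02 times that in untreated cells, and in donors 0.83 to 1.08 times that in aSyn-treated cells. No test of change over time passed for Adgre1, so that at 300 min, when donor Adgre5 was at 41.5 CPM, donor Adgre1 was at 1109 ± 298 CPM against 1135 ± 218 at 150 min (SD, n = 4 each).

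**Figure D4:**
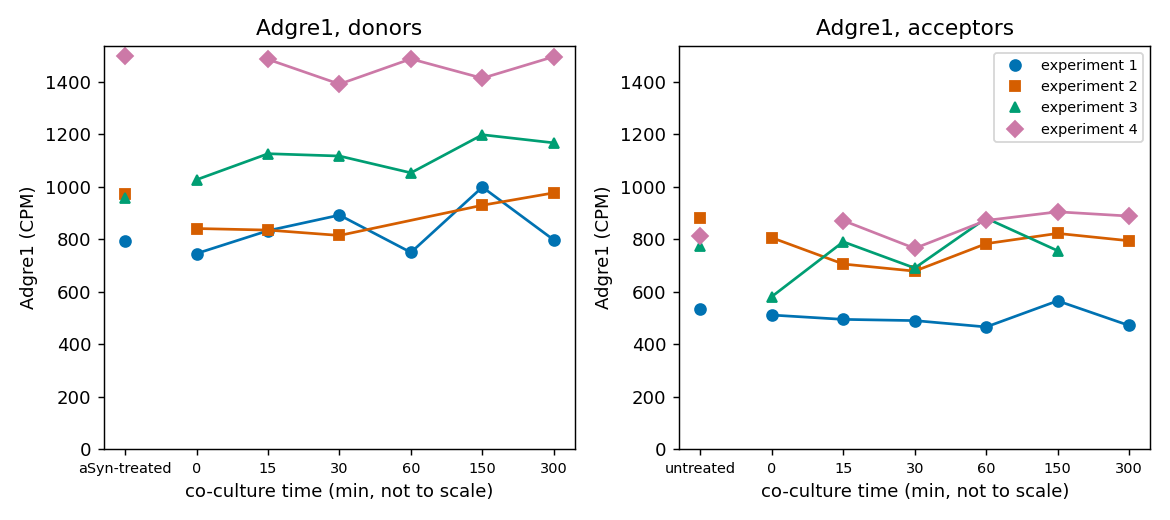
Level of Adgre1 (CPM) by co-culture time in donors (left) and acceptors (right) on the same vertical scale, with 1 line per experiment and the aSyn-treated or untreated sample at the left edge. Each donor line runs above the acceptor line of its own experiment, by 1.04 to 1.82 times.

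Adgre4 was close to the limit of detection, with 768 counts in all 52 samples. Untreated cells had 0, 6, 7 and 16 counts in experiments 1 to 4, and aSyn-treated cells 35, 11, 25 and 1. Experiment 4 was thus the lowest of the aSyn-treated samples. Its 16 untreated counts came from 2 summed libraries, and its untreated level of 0.603 CPM was close to the 0.600 CPM of experiment 3. In donors the counts were 13 to 32 in experiment 1, 4 to 25 in experiment 2, 29 to 49 in experiment 3 and 0 or 1 in experiment 4. Acceptors of experiment 4 had 2 to 12 counts.

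The levels at 0 min, when no sample of experiment 4 was present, were 2.80, 1.62 and 2.37 CPM in donors and 0.539, 0.242 and 0.955 CPM in acceptors. These ranges did not overlap, as for 16.8% of genes. Adgre4 was not called in any comparison of donors with acceptors, without or with the block. The estimate at 0 min was 1.94 ± 1.31 (SE, adjusted p = 0.811), and 2.14 ± 1.02 with the block (adjusted p = 0.256). Only when experiment 4 was left out of the fit with the block did it pass at 0 min (2.12 ± 0.69, adjusted p = 0.0438), although that time has no library of experiment 4. From 15 to 300 min the estimates were 0.16 to 1.25, each with an SE above 1.

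Cd55, the ligand gene, had 43 counts in all samples together and was not tested. It was at 0 counts in 34 of 52 samples and at 3 or fewer in 48. The highest value was 6 counts, or 0.442 CPM, in the aSyn-treated sample of experiment 1, and the other 3 aSyn-treated samples had 0. The untreated sample of experiment 2 had 5 counts, as did 1 acceptor sample of experiment 2 at 150 min, and the highest donor had 4. A difference between groups was not detectable at this depth. Its near copy Cd55b had 12 counts in all, in 5 of 52 samples. Thus a receptor gene at 28.6 to 113 CPM in donors stood beside a ligand gene at no more than 0.359 CPM in acceptors.

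**Figure D5:**
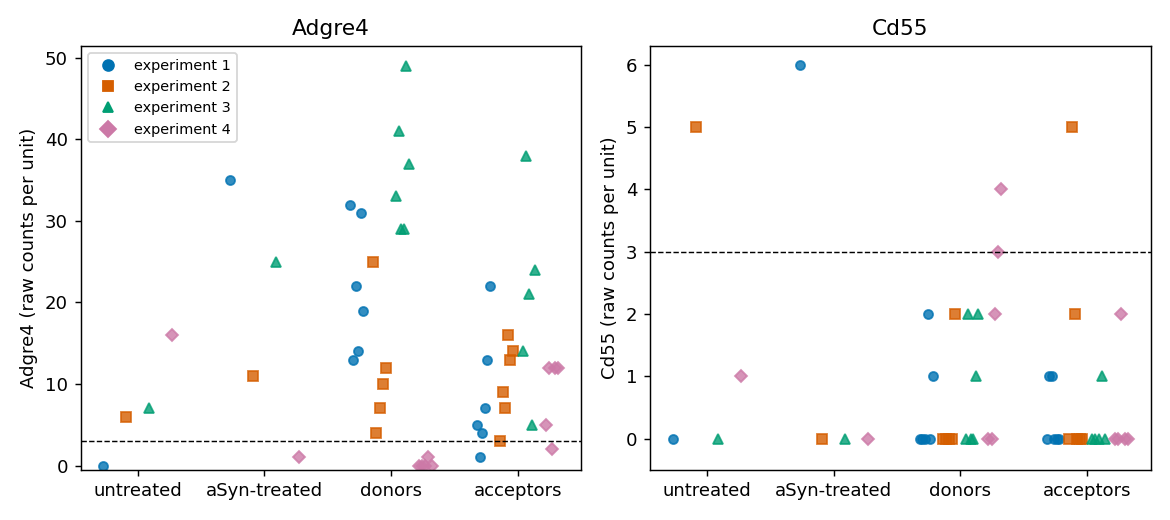
Raw counts per sample of Adgre4 (left) and Cd55 (right) in untreated cells, aSyn-treated cells, donors and acceptors, with shape and colour by experiment; the dashed line marks 3 counts. Adgre4 is at 0 or 1 count in the aSyn-treated and donor samples of experiment 4, and Cd55 is at 3 counts or fewer in 48 of 52 samples.

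Of 27 other adhesion receptor genes listed, 20 were analysed and 13 passed the filter. None was called in either direction in a comparison of donors with acceptors by edgeR or DESeq2, and 0 to 2 had an unadjusted edgeR p under 0.05 at each time. Of all genes, edgeR called 0.251, 0.888, 0.805, 0.418, 0.167 and 0.0304% in either direction from 0 to 300 min, and DESeq2 0.638, 1.64, 1.95, 0.890, 0.859 and 0.152%, while 6.11 to 11.5% had an unadjusted edgeR p under 0.05. With so few genes called, a count of 0 among 13 is near the share over all genes. The median log2 fold change of the 13 ran from -0.91 to 0.44 over the 6 times, beside -0.03 to 0.00 for all genes. With the block, Adgrl1, a latrophilin, passed as lower in donors at 15 min (-1.33 ± 0.43, adjusted p = 0.0426), and Adgra3 at 30 min (-1.07 ± 0.32, adjusted p = 0.0231). That is 1 of 13 at each of these times, where the block called 9.57 and 10.8% of all genes. The most abundant of the 13 was Adgrl2, with a median of 24.2 CPM over all samples.

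Among 7 other genes whose products bind CD97 or were reported beside it, 6 were tested. These are the integrin subunits Itga5, Itgav, Itgb1 and Itgb3, the lysophosphatidic acid receptor Lpar1 and Thy1, with Cd55b not tested. None was called in donors against acceptors by edgeR or DESeq2. From 0 to 300 min, 1, 3, 1, 1, 4 and 0 of the 6 had an unadjusted edgeR p under 0.05. Of all genes, 7.48, 11.5, 11.4, 9.85, 8.42 and 6.11% had one. The median log2 fold change of the 6 was -0.24 to 0.16. With the block, which called 1.38 to 10.8% of all genes at these times, Itgb1 was lower in donors at every time but 300 min, such as -0.29 ± 0.09 at 0 min (adjusted p = 0.0382) and -0.35 ± 0.07 at 15 min (adjusted p = 0.00155). It was at 238.2 ± 30.4 CPM in donors and 304 ± 32.99 in acceptors at 15 min (SD, n = 4 each). Also with the block, Lpar1 was higher in donors at 15, 30 and 150 min, at 1.60 ± 1.13 against 0.209 ± 0.218 CPM at 150 min (SD, n = 4 each, adjusted p = 0.00877). Itga5, which pairs with Itgb1 in the fibronectin receptor, was higher at 60 min (0.97 ± 0.25, adjusted p = 0.0140), at 29.9 ± 6.59 CPM (SD, n = 3) against 14.5 ± 2.09 CPM (SD, n = 4). In aSyn-treated against untreated cells Itga5 was called higher by edgeR without the block (1.07 ± 0.30, adjusted p = 0.0431). Thy1, with 125 counts in all samples together, was lower in donors at 150 min with the block (-4.74 ± 1.36, adjusted p = 0.0338). It had 0 counts in all 4 donor samples and 0.300 ± 0.410 CPM in acceptors. Mean acceptor levels of Thy1 and Lpar1 at 150 min were about that of 3 counts, 0.193 to 0.384 CPM.

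Of 7 listed genes of membrane proteins linked to complement, 3 were tested: Cd59a, Cr1l and Cd93. None was called by edgeR or DESeq2, with 0 or 1 at an unadjusted edgeR p under 0.05, beside 6.11 to 11.5% of all genes. The median log2 fold change of these 3 was -0.16 to -0.05. With the block, which called 9.57 and 10.8% of all genes at 15 and 30 min, Cd59a, which limits the membrane attack complex, was lower in donors at 15 min (-0.45 ± 0.14, adjusted p = 0.0356) and 30 min (-0.58 ± 0.14, adjusted p = 0.00641).

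The genes whose log2 CPM followed Adgre5 most closely over the 52 samples were Slc13a3 (Pearson r = 0.93), Nr1h3 (0.90), Acp5 (0.90), Clec4n (0.89), St3gal1 (0.89), Ocstamp (0.88), Cdc42se2 (0.88) and Bcl2a1b (0.87). Slc13a3 encodes a dicarboxylate transporter, Nr1h3 the sterol receptor LXR alpha, Acp5 the tartrate-resistant acid phosphatase, Clec4n the lectin Dectin-2 and Ocstamp a protein of osteoclast fusion. The samples share groups, experiments and libraries, and the r values carry no test. Over the 44 donor and acceptor samples alone r was 0.86 to 0.93 for these 8. Map3k20 (-0.89), Zbtb16 (-0.88) and Dgkd (-0.87) were at the opposite end. Adgre1 had an r of 0.63 and Adgre4 of 0.23 with Adgre5, and Ddx39 of 0.59.

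These 8 genes were picked by that correlation, and their gap between donors and acceptors varied in size. Slc13a3 had a mean of 43.2 CPM in donors and 4.75 CPM in acceptors over all times, and Acp5 of 6.11 and 0.834 CPM. The gap was narrower in St3gal1 (143 and 67.6 CPM), Bcl2a1b (440 and 274 CPM) and Cdc42se2 (146 and 99.7 CPM). Donor and acceptor ranges overlapped for St3gal1, Bcl2a1b, Clec4n and Ocstamp. The donor means of all 8 at 300 min lay near those of the earlier times. Slc13a3 was at 42.8 CPM on average in donors from 0 to 150 min and at 45.1 CPM at 300 min. Nr1h3 was at 29.2 and 30.6 CPM, Acp5 at 6.15 and 5.92 CPM, and Clec4n at 157 and 149 CPM. St3gal1 was at 146 and 128 CPM, Ocstamp at 3.61 and 3.50 CPM, Cdc42se2 at 148 and 139 CPM, and Bcl2a1b at 440 and 436 CPM. Whether Adgre5 differed from them in its course was not tested.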

How the data were processed

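RNA of 54 libraries of primary mouse microglia in 14 groups was analysed. The table the authors deposited holds whole raw counts for each gene symbol, per the file headers. They also deposited a DESeq2-normalized signal: 100% of it matched the counts after division by size factors, within rounding to 1 decimal, and it had no other use. STAR, Partek and DESeq2 and the build mm10 are named in the submitters' processing notes; their versions, the annotation and the use of strand are not given in the sources used here. Libraries were made with a QuantSeq forward 3′ kit and read as 50 bp single reads, per the labels' protocols. Totals were 7807389 to 15537493 counts. Floors of 3 counts cover counting error only, since no molecular identifiers are stated. Gene positions come from GENCODE M21 on GRCm38, the assembly that mm10 names.

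Groups come from the group labels and experiments from the number in each title. Untreated libraries numbered 2 and 4 occur in pairs, which differed by less (chi-square per degree of freedom 12.1 and 10.3) than other untreated libraries (24.2 to 288) and were summed, giving 52 samples. Counts were compared with edgeR 4.0.16 in R 4.3.3 (TMM scaling, a minimum count of 10 in filterByExpr, by group, quasi-likelihood F test, 14 group means fitted together). The filter left 13169 genes, called at a Benjamini-Hochberg adjusted p under 0.05. Contrasts were 19 comparisons and 3 tests over time; Adgre5 is given with no test in the 13 that hold the untreated or aSyn-treated libraries by which it was chosen. Experiment numbers are shared across groups. Deviations from the group means were correlated across genes between same-numbered samples, with a mean r of 0.339 to 0.593 over the 19 comparisons and a lowest r of a single pair of 0.199. The numbers were therefore taken to pair the samples, and the fit with the number as a block is given where it changes a call. The block lowered the biological coefficient of variation from 38.1 to 21.0%. On simulated counts of donors against acceptors at 30 min (13169 genes), 97% of genes changed by 2 on the log2 scale and 37% of those changed by 1 were recovered, with 7 false calls. The changed genes were drawn only from genes with a higher mean count than Adgre4. Samples were simulated with no shared experiment effect and fitted without the block. These rates therefore do not cover genes as low as Adgre4, or the fit with the block.

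The members, gene lists and marker lists were chosen with earlier results of these data known. The text names the 4 members, Ddx39 and Cd55b, list genes called in donors against acceptors, and the 8 genes most and 3 least like Adgre5 by Pearson r of log2 CPM (prior count 2). As none of the list genes was called without the block, those called with it are named. Another gene list compared is not reported here. Alternatives were the block, DESeq2 1.42.0 and its size factors in edgeR, no filter, 54 separate libraries, only the groups compared, and leaving out each experiment, without the block and, chosen after seeing that the block changed calls, with it. Experiment 4 carries facility numbers 110050 to 110063, apart from 108934 to 108979 in the others, so values without experiment 4 are those within the other number range.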

Additional observations from a re-analysis of the deposited data

Results flagged for a closer look

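In acceptors at 60 min, Adgre5 of experiment 3 stood apart from the other 3 experiments at 8.64 CPM. Cd55 had 1 sample apart from the rest in 3 groups: aSyn-treated cells (0.442 CPM, 6 counts), donors at 150 min (0.160 CPM, 2 counts) and acceptors at 30 min (0.0762 CPM, 1 count). In each of these 3 groups the remaining samples were at 0. In all, 38 groups of the members were checked in this way. For values with a normal spread, chance flags about 1 in 20. A checked group with counts in only 1 sample is always flagged, so that rate does not hold for the 3 Cd55 groups.

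Adgre5 in donors was above the aSyn-treated sample of its experiment in every pair at 15 and 60 min and below it in every pair at 300 min. The mean log2 ratio at 15 min exceeded that at 300 min by 1.15, and the mean log2 ratio at 300 min minus that at 60 min was -1.19. These 2 differences were not tested in themselves, and they share the aSyn-treated libraries.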

How the results depend on the processing

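Over 37 results, 518 values under alternatives were computed: 468 kept the direction and the side of the threshold, 46 came to pass it and 4 turned sign. Adgre5 was called higher in donors than in acceptors under each alternative and at each time, with log2 fold changes from 3.63 to 4.59. These totals include Adgre5 in acceptors against untreated cells and in donors against aSyn-treated cells, which share libraries with the choice of the gene, so that passing the threshold there supports nothing. In acceptors against untreated cells the log2 difference was 0.79 at 15 min, 0.91 at 60 min and 0.91 at 150 min with the replicate block, and 1.00 at 60 min and 1.01 at 150 min with 54 separate libraries. Leaving out 1 experiment, without or with the block, gave 0.60 to 0.93 at 15 min, 0.79 to 1.06 at 60 min and 0.66 to 1.14 at 150 min. Adgre5 in donors at 300 min against aSyn-treated cells was -1.02 with the block, and -1.19 to -0.90 with 1 experiment left out. The test of change over time in donors had an adjusted p of 6.10e-05 with the block and 0.00893 by DESeq2, and of 1.49e-04 to 1.00 with 1 experiment left out. Small differences turned sign: donors against aSyn-treated cells at 150 min was 0.0046 without experiment 1, 0.085 without experiment 2 and 0.062 without experiment 2 with the block, with a range of -0.14 to 0.085, and that at 60 min was -0.020 without experiment 4 with the block, with a range of -0.020 to 0.18. The cause was not tested.

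The block raised counts of called genes at every time: in donors against acceptors from 33 to 564, 117 to 1260, 106 to 1416, 55 to 882, 22 to 684 and 4 to 182 from 0 to 300 min. DESeq2 called 0.638, 1.64, 1.95, 0.890, 0.859 and 0.152% of the genes it tested there, against 0.251, 0.888, 0.805, 0.418, 0.167 and 0.0304% by edgeR. In acceptors against untreated cells the edgeR counts of 0, 0, 15, 9, 18 and 0 became 131, 296, 474, 527, 630 and 82 with the block and 1, 22, 34, 68, 91 and 4 by DESeq2. In donors at 300 min against aSyn-treated cells 4 became 40 with the block and 7 by DESeq2, and over time in donors 8 became 76 and 44. Besides these comparisons, the block changed no other call of Adgre5. Depth limited Adgre4 and Cd55, whose counts were near 0 in many samples.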
